A study of Mus musculus with 9 samples.

Results

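Mir155hg, Mir22hg, Mir17hg, Neat1, Malat1 and U90926 are non-coding or putatively non-coding transcripts, and they were followed here across the activation of dendritic cells (DCs). They are 6 of the 55471 genes in the deposited counts and were taken by their gene names, as miRNA host genes and regulatory long non-coding RNAs (lncRNAs). These members and the gene lists below were chosen with earlier results of these data known. Their p-values and counts are therefore not those of genes fixed in advance. U90926 was chosen by its counts in these same libraries, which were far higher with LPS than in both other groups, so its values are given as a description without a test. The DCs were wild-type cells differentiated from mouse bone marrow in GM-CSF. They were left unstimulated or given 100 ng/mL LPS, a bacterial product sensed by Toll-like receptors, or 1000 U/mL of the type I interferon IFN-β for 6 h. The libraries, lettered A to C in each of 3 groups, were made from RNA depleted of ribosomal RNA. The mice were C57BL/6 females of 8 to 20 weeks, and no allele or treatment set the groups apart other than the stimulus.

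MicroRNAs (miRNAs) are short RNAs that guide silencing proteins to messenger RNAs, mostly through their seed, bases 2 to 8 of the mature strand. They are cut out of longer primary transcripts, and a host gene such as Mir155hg is the primary transcript itself. Neat1 is the scaffold RNA of paraspeckles, and Malat1 is an abundant RNA of nuclear speckles. Both are kept in the nucleus and lie next to each other in the genome. In innate immune cells, miR-155 is known as a miRNA induced by Toll-like receptors and interferons, and the miR-17-92 cluster is known for its part in proliferation and survival.

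The 3 host genes encode 15 mature sequences in RefSeq. A single strand of each of the 8 hairpins is shown, and the other strands are left out. The sequences shown are products for which the host transcripts are the readout here. They come from RefSeq (GRCm38.p6), run 5′ to 3′, and have the seed in capitals.
miR-155-5p: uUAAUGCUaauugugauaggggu
miR-22-3p: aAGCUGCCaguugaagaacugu
miR-17-5p: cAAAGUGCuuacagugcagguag
miR-20a-5p: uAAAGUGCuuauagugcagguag
miR-18a-5p: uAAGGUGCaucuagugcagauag
miR-19a-3p: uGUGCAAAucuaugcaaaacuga
miR-19b-3p: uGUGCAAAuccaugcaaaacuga
miR-92a-3p: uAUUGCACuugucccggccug
The Mir17hg products shown fall into 4 seeds. miR-17-5p and miR-20a-5p share AAAGUGC, miR-19a-3p and miR-19b-3p share GUGCAAA, and miR-18a-5p and miR-92a-3p each have a seed that no other of these products has. The seeds of miR-155-5p and miR-22-3p were each found in 1 mature mouse miRNA of the RefSeq table, and AAAGUGC in 7.

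The miR-155 hairpin lies at chr16:84714140-84714204 (plus strand, GRCm38), inside an exon of Mir155hg, and its letters are shown because it is the part of the transcript that is processed. Capitals mark the 5p and the 3p strand.
pre-miR-155: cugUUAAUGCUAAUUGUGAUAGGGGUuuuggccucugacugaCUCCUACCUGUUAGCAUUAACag
The miR-22 hairpin (chr11:75463716-75463810) and the 6 hairpins of the miR-17-92 cluster, from chr14:115043671-115043754 to chr14:115044427-115044506, are also exonic in their hosts. The 8 hairpins have gene rows of their own in the deposited counts, and each of these rows held 0 counts in every library. Mature miRNAs were not measured, so the values below are those of the host transcripts. Reads that overlap 2 genes are assigned to neither in this kind of counting, so a host count leaves out reads over its own hairpins and a 0 in a hairpin row sets no bound on it.

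Levels are given as CPM, counts per unit of 1000000 in the library size after scaling by TMM factors, which correct for differences in composition. A count of 0 allows up to 3 counts, a floor between 0.0674 and 0.106 CPM in the different libraries. Library totals ran from 33425803 to 43735199 counts on genes. Changes are log2 fold changes from edgeR's quasi-likelihood test, and p-values were adjusted by the Benjamini-Hochberg method over 16260 genes that passed the filter on low counts. An adjusted p-value under 0.05 was called a change. This called 68.2% of tested genes under LPS (32.8% higher and 35.4% lower) and 46.9% under IFN-β (23.6% higher and 23.3% lower). Between IFN-β and LPS it called 49.1% (25.8% higher and 23.3% lower with IFN-β). Nothing in the labels ties a library to its own mouse or culture, so p-values measure the spread between these libraries, which may be technical. In these bulk samples, fewer cells of a type and less RNA per cell cannot be told apart.

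The cells carried DC markers in every library. The summed level of 10 DC markers, among them Itgax (CD11c), Cd74 and H2-Ab1, was 5716 to 6859 CPM in unstimulated DCs, 7643 to 8514 CPM with LPS and 6396 to 6740 CPM with IFN-β. Levels in this list were uneven, with Cd74 at 2537 CPM in unstimulated DCs. Flt3 had 3.06, 3.49 and 2.65 CPM for unstimulated, LPS and IFN-β. LPS raised 6 of the 10 and lowered none, but with scaling by library size only it raised 1 and lowered 5. The 8 macrophage markers summed to 1808 to 2337, 2012 to 2603 and 2703 to 3041 CPM in the same order, and their part in the values below was not tested. Neutrophil markers summed to at most 25.6 CPM, mast cell and basophil markers to at most 9.95 CPM and lymphocyte markers to at most 0.456 CPM, with Mcpt4 at 0 in every library. All 10 markers of stimulation rose with LPS and 9 of them with IFN-β. The exception was Il12b, the p40 subunit of IL-12, at 3.41 ± 0.696 CPM in unstimulated DCs, 3615 ± 187 CPM with LPS and 4.28 ± 0.769 CPM with IFN-β (SD, n = 3), and with the replicate letters in the model it passed under IFN-β too (log2 fold change 0.34, edgeR adjusted p = 0.0399).

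Mir155hg, the host of miR-155, rose under both stimuli and rose more under LPS. It lies at chr16:84703167-84715245 on the plus strand. Unstimulated libraries A, B and C held 308, 380 and 356 counts. The LPS libraries held 4285, 4755 and 6012 counts and the IFN-β libraries 994, 863 and 846 counts. The 3 groups did not overlap, in counts or after scaling, and the IFN-β libraries lay between the others. Scaled to library size this was 8.12 ± 0.373 CPM in unstimulated DCs, 158 ± 23.8 CPM with LPS and 23.2 ± 0.239 CPM with IFN-β (SD, n = 3). LPS raised it 19.5-fold (log2 fold change 4.28, SE 0.11, adjusted p = 1.1e-09). IFN-β raised it 2.85-fold (1.51, SE 0.10, adjusted p = 2.5e-06). The difference between the responses, IFN-β minus LPS, was -2.77 on the log2 scale (SE 0.10, adjusted p = 2.1e-08), so the IFN-β level was 6.83-fold below that of LPS. The LPS change of Mir155hg lay at percentile 98.4 of all tested genes and the IFN-β change at percentile 95.2.

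Mir22hg, the host of miR-22, also rose under both stimuli, by less. It lies at chr11:75461539-75466676 on the plus strand and shares 206 exonic bases with Tlcd2 on the same strand, so reads over those bases are not counted for it. Unstimulated libraries A, B and C held 1022, 1236 and 1340 counts, LPS libraries 1693, 2201 and 2490, and IFN-β libraries 1621, 1442 and 1589. In CPM the groups did not overlap, at 28.0 ± 2.18, 66.8 ± 8.63 and 40.1 ± 3.33 CPM (SD, n = 3) for unstimulated, LPS and IFN-β. Mir22hg rose 2.39-fold with LPS (log2 fold change 1.26, SE 0.10, edgeR adjusted p = 1.3e-06) and 1.43-fold with IFN-β (0.52, SE 0.10, edgeR adjusted p = 0.00196). With scaling by library size only the LPS rise was 0.68 and still past the threshold, and the IFN-β rise was 0.21 and not past it (adjusted p = 0.157). The log2 difference between the 2 responses, IFN-β minus LPS, was -0.74 (SE 0.10, edgeR adjusted p = 1.5e-04). Tlcd2 itself had few reads, between 79 and 136 counts per library.

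Mir17hg, which carries the miR-17-92 cluster, had no change past the threshold in any comparison with TMM factors, all 9 libraries and no replicate block. It lies at chr14:115042879-115046727 on the plus strand. Its counts were 151, 217 and 282 in the unstimulated libraries A, B and C. They were 129, 161 and 179 with LPS and 147, 170 and 135 with IFN-β. The unstimulated libraries spread from 3.83 to 6.36 CPM and overlapped those of both stimuli. The mean was 5.02 ± 1.28 CPM in unstimulated DCs, 4.92 ± 0.507 CPM with LPS and 3.90 ± 0.555 CPM with IFN-β (SD, n = 3). LPS gave a log2 fold change of -0.03 (95% interval -0.44 to 0.38, adjusted p = 0.891) and IFN-β one of -0.37 (95% interval -0.78 to 0.04, adjusted p = 0.129). Blocking on the replicate letters gave an IFN-β value of -0.35 (adjusted p = 0.0438), past the threshold. Without unstimulated replicate A it was -0.53 (adjusted p = 0.0285), also past it. With library size only both values were past it, at -0.62 under LPS (adjusted p = 0.0179) and -0.68 under IFN-β (adjusted p = 0.0156). The LPS value was 0.17 without unstimulated replicate C, 0.02 without LPS replicate A and 0.0032 without LPS replicate B. The IFN-β libraries all lay below the LPS libraries, but the difference of -0.34 on the log2 scale was not past the threshold (95% interval -0.76 to 0.08, adjusted p = 0.164).

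**Figure D1:**
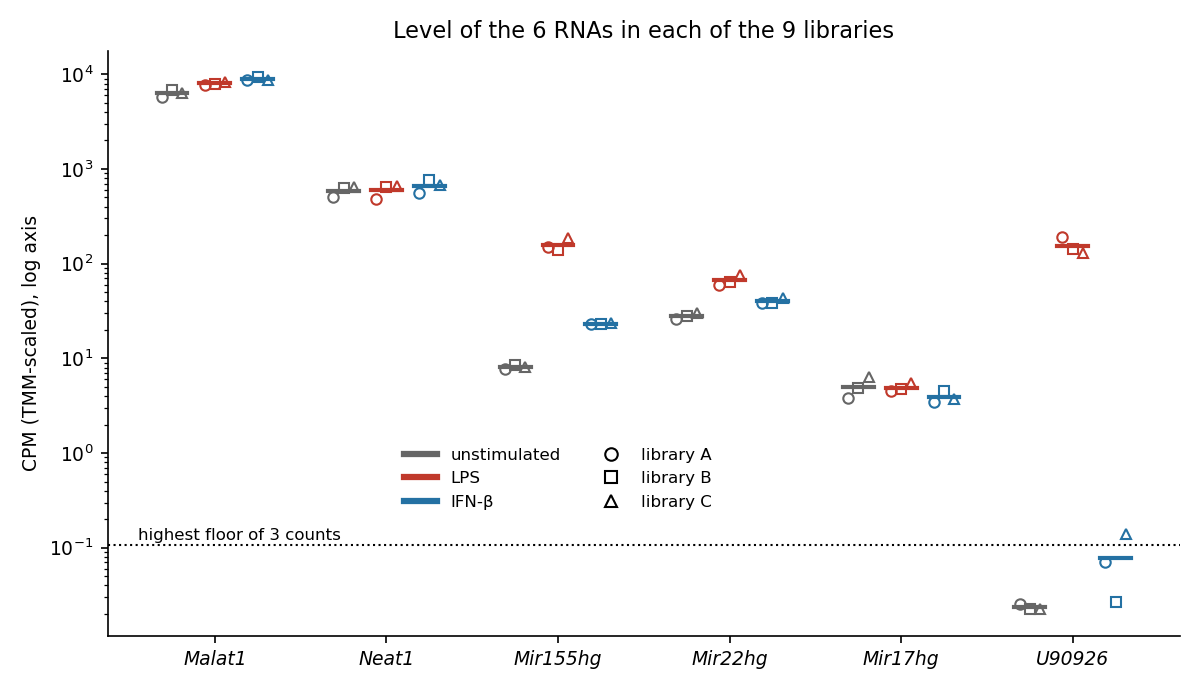
Level of each RNA in CPM on a log axis, with 1 symbol per library (shape for the letter, colour for the group) and a bar at the group mean. Mir155hg separates into 3 levels, Malat1 and Neat1 stay near the top in every library, and U90926 sits at or near the floor of 3 counts outside LPS.

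Of 14 genes in the deposited counts that are named as miRNA hosts in the same way, 7 were tested. Mir155hg and Mir22hg were the 2 that rose, under both stimuli. With the replicate block Mir99ahg also passed the threshold under LPS (log2 fold change 0.97, edgeR adjusted p = 0.0481), and Mir17hg fell under IFN-β as given above. Mir99ahg was near the floor, with 5, 6 and 10 counts in unstimulated libraries A, B and C and 5, 13 and 13 with LPS. Mir181a-1hg was the 1 that fell under LPS, by 1.13 on the log2 scale, from 5.69 ± 0.620 to 2.60 ± 0.188 CPM (SD, n = 3), and it had 5.24 ± 0.595 CPM with IFN-β. With scaling by library size only, LPS raised 2 and lowered 4 of these hosts and IFN-β raised 1 and lowered 2. Among 23 protein-coding genes that host a miRNA, 19 were tested. LPS raised 3 and lowered 9, and IFN-β raised 4 and lowered 9. The median log2 fold change was -0.17 and -0.20, beside -0.04 and -0.02 for all tested genes. Of all tested genes, 32.8% were higher and 35.4% lower under LPS, and 23.6% and 23.3% under IFN-β. With library size only, LPS raised 1 and lowered 16 and IFN-β raised 2 and lowered 14. Rcl1, an enzyme homolog of ribosomal RNA processing, rose by 2.55 on the log2 scale under LPS and fell by 0.42 under IFN-β. Pank1, which makes coenzyme A, fell under both, by 2.74 and 2.12, and Tln2, a cytoskeletal linker, by 1.91 and 1.09. Evl, an actin regulator, rose most under IFN-β, by 0.92.

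**Figure D2:**
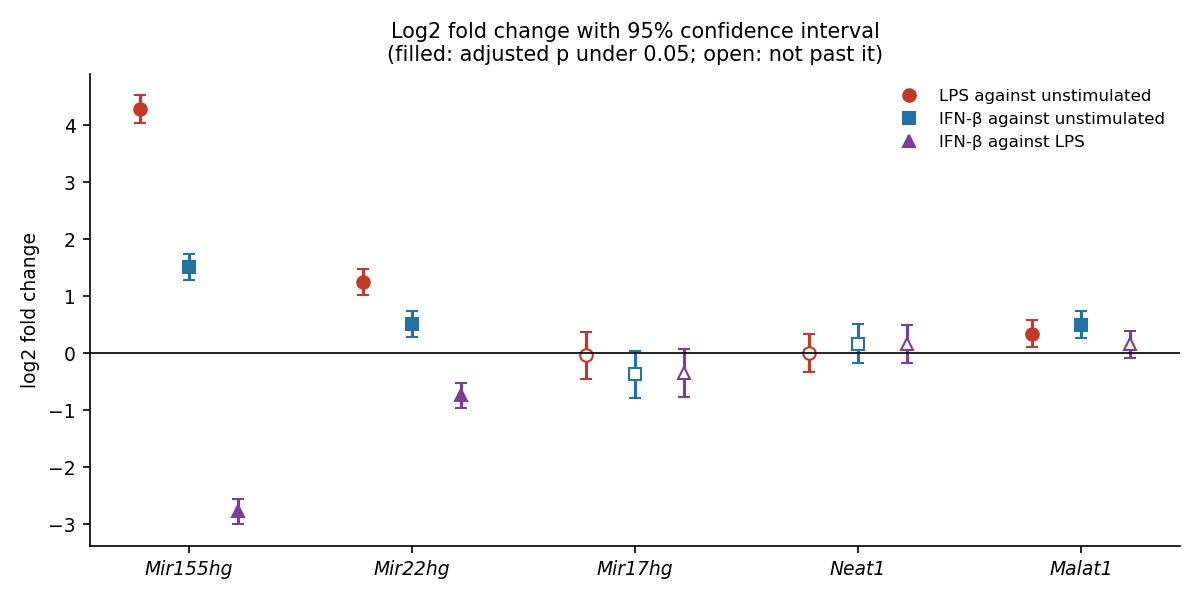
Log2 fold change (vertical axis) of the 5 tested RNAs in the 3 comparisons, with bars for the 95% confidence interval and filled symbols for an adjusted p-value under 0.05. Mir155hg and Mir22hg have filled symbols in all 3 comparisons, and the intervals of Mir17hg and Neat1 include 0 in all 3.

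The genes that cut, export and use miRNAs moved in both directions. Of 28 listed, 26 were tested, of which LPS raised 9 and lowered 10 and IFN-β raised 5 and lowered 11. With scaling by library size only, LPS raised 7 and lowered 18 and IFN-β raised 3 and lowered 17. The shares over all tested genes with TMM factors were 32.8% higher and 35.4% lower under LPS, and 23.6% and 23.3% under IFN-β. Mov10, an RNA helicase of the silencing complex that is also an interferon-stimulated gene, had the largest rise under both, from 39.5 ± 10.2 CPM to 362 ± 37.5 CPM with LPS and 261 ± 13.3 CPM with IFN-β (SD, n = 3). Zc3h12a, an RNase known to cut pre-miRNAs and cytokine messengers, rose by 2.55 on the log2 scale with LPS (adjusted p = 1.7e-08, edgeR) and had 0.11 with IFN-β. The Argonaute gene Ago3 had a difference of -1.99 between the IFN-β and the LPS response. Prkra, a partner of Dicer, fell by 1.02 under LPS and by 0.44 under IFN-β. Dicer1 itself fell by 0.36 and 0.25, and Drosha had 0.04 and 0.05.

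Genes named in the literature as targets of these miRNAs moved in both directions. All 16 listed miR-155 targets were tested. LPS raised 11 and lowered 5, while IFN-β raised 9 and lowered none. The median log2 fold changes were 0.73 and 0.40, beside -0.04 and -0.02 for all tested genes. Of all tested genes, 32.8% were higher and 35.4% lower under LPS, and 23.6% and 23.3% under IFN-β. With scaling by library size only, LPS raised 8 and lowered 7 of the listed targets, and IFN-β raised 4 and lowered 4. The replicate block gave 11 higher and 2 lower under IFN-β. Inpp5d, which encodes the phosphatase SHIP1, went from 220 ± 7.71 CPM to 61.8 ± 6.75 CPM with LPS (SD, n = 3), and its level with IFN-β was 194 ± 2.76 CPM, not past the threshold. Under IFN-β its log2 fold change passed with the replicate block (-0.18, edgeR adjusted p = 0.0434) and with library size only (-0.48). Socs1, a feedback inhibitor of cytokine signalling, rose from 37.4 ± 2.11 CPM to 254 ± 46.3 CPM with LPS and 133 ± 6.05 CPM with IFN-β. Peli1, a ubiquitin ligase of Toll-like receptor signalling, rose from 25.3 ± 1.86 CPM to 259 ± 48.3 and 84.8 ± 12.6 CPM. Fos, an AP-1 subunit, fell by 2.29 on the log2 scale under LPS. Its libraries spread widely, at 18.8 ± 11.7 CPM in unstimulated DCs and 3.91 ± 2.37 CPM with LPS (SD, n = 3). Csf1r, the receptor for M-CSF, fell by 0.97 on the log2 scale under LPS.

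The 13 listed targets of miR-17-92 and the 8 of miR-22 were all tested, and the lists overlap. Of the first, LPS raised 7 and lowered 4 and IFN-β raised 6 and lowered 2, and with library size only LPS raised 5 and lowered 6 and IFN-β raised 5 and lowered 5. The cell cycle factors E2f2 and E2f1 had the largest falls, by 3.89 and 1.70 on the log2 scale under LPS and by 0.91 and 0.46 under IFN-β. Stat3, a transcription factor of cytokine signalling, rose by 1.73 under LPS. Of the miR-22 targets, LPS raised 5 and lowered 2 and IFN-β raised 5 and lowered 1, and with library size only LPS raised 4 and lowered 3 and IFN-β raised 3 and lowered 2. Irf8, a transcription factor of DC development, rose by 1.92 with LPS and by 0.81 with IFN-β, and the histone deacetylase Hdac4 fell by 2.01 and 0.55. These are messenger levels, and whether a miRNA had a part in them was not tested. Over all tested genes with TMM factors, 32.8% were higher and 35.4% lower under LPS, and 23.6% and 23.3% under IFN-β.

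**Figure D3:**
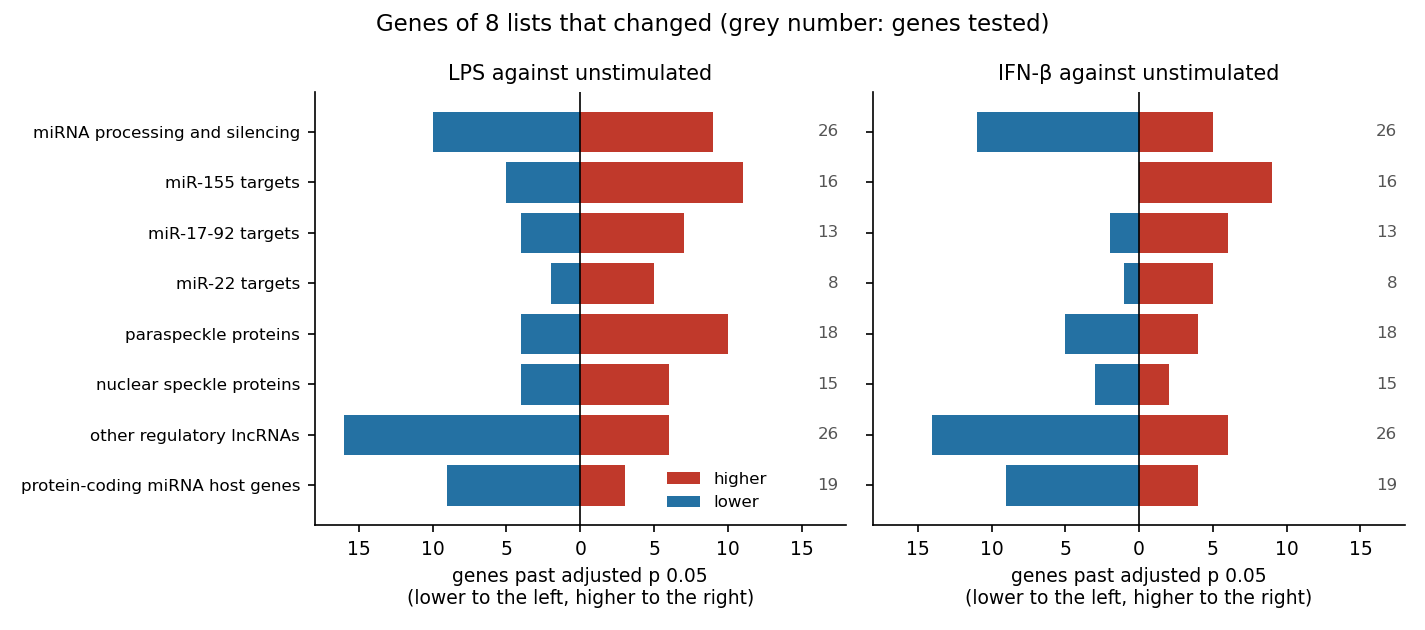
Number of genes of 8 lists past an adjusted p-value of 0.05 in each comparison (bars to the right for higher, to the left for lower), with the number tested in grey at the right. The bars of the miR-155 targets run 11 to the right and 5 to the left under LPS and 9 to the right under IFN-β, and the other regulatory lncRNAs have more bars to the left under both.

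Malat1 was the most abundant of the 6 RNAs in every library. It lies at chr19:5795690-5802672 on the minus strand. The unstimulated libraries A, B and C held 227315, 302198 and 282012 counts, the LPS libraries 220661, 268928 and 272905, and the IFN-β libraries 374181, 350008 and 315352. In CPM, each stimulated library lay above all unstimulated ones, and the LPS libraries were all lower than those with IFN-β. The means were 6303 ± 516, 8009 ± 325 and 8922 ± 323 CPM (SD, n = 3) for unstimulated, LPS and IFN-β. IFN-β raised it 1.42-fold (log2 fold change 0.50, SE 0.11, adjusted p = 0.00296). The LPS value was 0.35 (SE 0.11, adjusted p = 0.0137), but it turned to -0.24 (adjusted p = 0.0553) with scaling by library size only, and it was not past the threshold with upper-quartile factors (0.25, adjusted p = 0.0535) or without unstimulated replicate A (0.28, adjusted p = 0.0514). The IFN-β rise kept its direction with library size only, at 0.19, but was not past the threshold (adjusted p = 0.133). The difference of 0.16 between the stimuli was not past the threshold (95% interval -0.08 to 0.39, adjusted p = 0.251), but it was 0.43 and past it with library size only (adjusted p = 0.00458).

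Neat1 had no change past the threshold with TMM factors, all 9 libraries and no replicate block. It lies at chr19:5824708-5845478 on the minus strand, 22 kb from Malat1. Counts in the unstimulated libraries A, B and C were 19821, 27968 and 28341. With LPS they were 13531, 22004 and 21487, and with IFN-β 23988, 28536 and 24400. In CPM the groups overlapped, at 590 ± 76.1, 593 ± 99.7 and 665 ± 98.3 CPM (SD, n = 3) in the same order. Library A had the lowest CPM of Neat1 in all 3 groups, as it had for Mir22hg and Mir17hg. The log2 fold change under LPS was 0.01 (95% interval -0.32 to 0.34, adjusted p = 0.965), and with library size only it was -0.57 (adjusted p = 0.00961). Under IFN-β it was 0.17 (95% interval -0.16 to 0.50, adjusted p = 0.379). Blocking on the replicate letters gave an IFN-β value of 0.17 (adjusted p = 0.0403) and a difference between IFN-β and LPS of 0.17 (adjusted p = 0.042), both past the threshold.

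**Figure D4:**
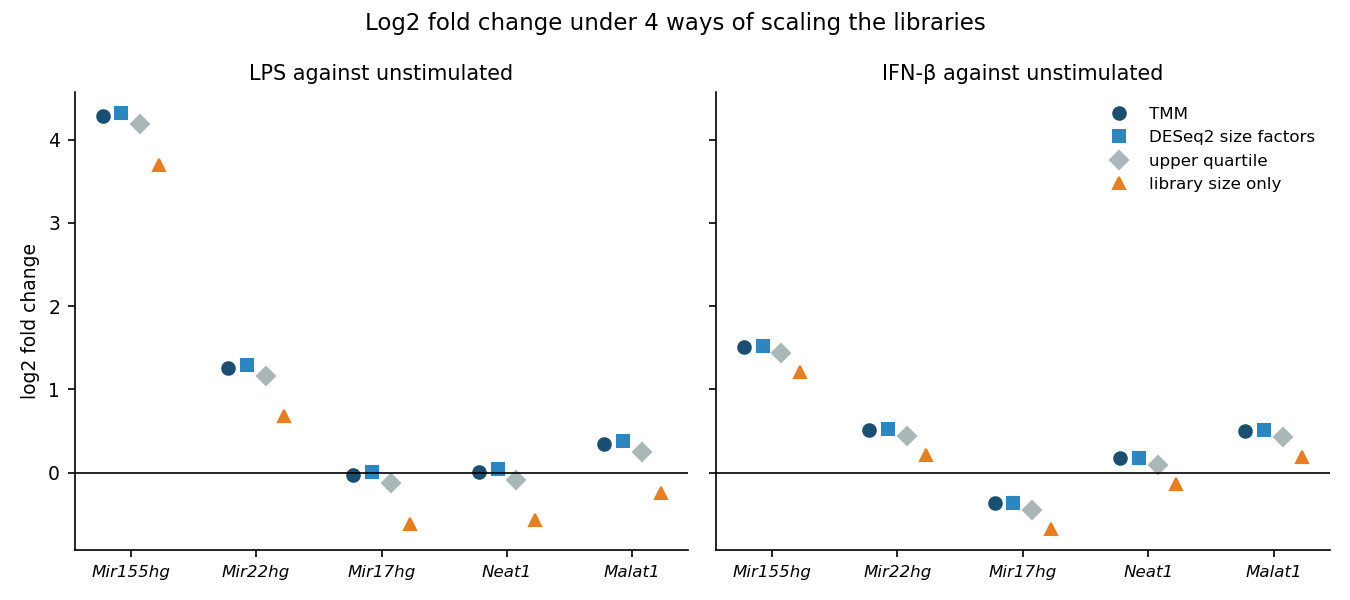
Log2 fold change (vertical axis) of the 5 tested RNAs under LPS (left) and IFN-β (right) with TMM factors, DESeq2 size factors, upper-quartile factors and library size only. Library size only lowers every value, and for Malat1 under LPS and for Neat1 under both stimuli it turns a value above 0 into one below 0.

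With library size only, the median over all tested genes shifted by -0.58 on the log2 scale under LPS and by -0.31 under IFN-β. Of the genes called under LPS it left 21.9% higher, against 48.1% with TMM factors, and of those called under IFN-β 22.3%, against 50.3%. Between IFN-β and LPS 77.9% of the calls were then higher with IFN-β, against 52.5%. The Malat1 value under LPS lay above the median of all tested genes with both, at 0.35 against -0.04 with TMM factors and -0.24 against -0.62 with library size only.

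The ratio of Neat1 to Malat1 within a library does not depend on its scaling. Neat1 counts were 8.72%, 9.25% and 10.0% of the Malat1 counts in unstimulated libraries A, B and C, 6.13%, 8.18% and 7.87% with LPS, and 6.41%, 8.15% and 7.74% with IFN-β. All 6 stimulated libraries lay below all 3 unstimulated ones. The log2 ratio differed from that of unstimulated DCs by -0.35 with LPS and by -0.33 with IFN-β, and was lower in 3 of 3 letters each time. The exact two-sided permutation p-value was 0.1 for both, the smallest that 3 libraries against 3 allow, so neither can pass 0.05. Between LPS and IFN-β the ratio differed by 0.01 (exact permutation p = 1).

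**Figure D5:**
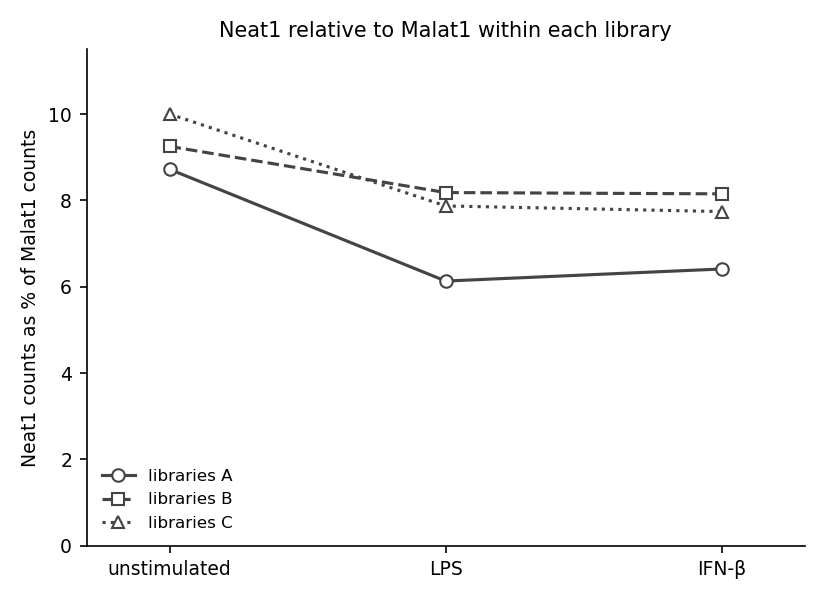
Neat1 counts as a percentage of Malat1 counts (vertical axis, from 0) in each library, with lines joining libraries of the same letter. All 3 lines are lower with LPS and with IFN-β than in unstimulated DCs, and libraries A lie lowest in each group.

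A short gene on the opposite strand, Gm37376, lies wholly inside Malat1 (453 exonic bases) and had 54 to 139 counts per library, 0.0217% to 0.0371% of the Malat1 counts. Counting without strand would leave its reads unassigned with these gene models, and the strand setting of the counts is not given in the sources used here. The log2 fold change of Gm37376 under IFN-β was 0.75 (adjusted p = 0.0161, edgeR), beside 0.50 for Malat1. Whether the counts of Gm37376 are separate from reads of Malat1 was not tested. In other settings the IFN-β call on Gm37376 varied. It was not past the threshold with library size only (0.43, adjusted p = 0.1), without IFN-β replicate A (0.51, adjusted p = 0.0782) or without unstimulated replicate A (0.68, adjusted p = 0.0503). Short annotated RNAs inside Neat1 and Malat1 on the same strand, Gm27533, Gm27505, Gm28006 and Gm27694, had 0 counts in every library.

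The proteins that build the bodies around Neat1 and Malat1 moved in both directions. Over all tested genes, LPS raised 32.8% and lowered 35.4%, and IFN-β raised 23.6% and lowered 23.3%. All 18 paraspeckle genes were tested, of which LPS raised 10 and lowered 4 and IFN-β raised 4 and lowered 5, a total of 9 that was 5 without unstimulated replicate C or IFN-β replicate A. With library size only, LPS raised 2 and lowered 11 and IFN-β raised 1 and lowered 8. Nono, a core paraspeckle protein, rose from 122 ± 7.87 CPM to 301 ± 24.0 CPM with LPS and 259 ± 17.8 CPM with IFN-β (SD, n = 3). Its partner Sfpq had 0.08 and -0.09 on the log2 scale, and the core protein Pspc1 fell by 0.36 and 0.27. Between the stimuli 6 paraspeckle genes were lower with IFN-β and none higher, and with the replicate block 10 were lower and 1 higher. This turned with library size only, to 7 higher and 1 lower with IFN-β. Of 15 nuclear speckle genes, all tested, LPS raised 6 and lowered 4 and IFN-β raised 2 and lowered 3, and with library size only LPS raised none and lowered 13. The 5 called under IFN-β were 2 to 3 without unstimulated replicate A, B or C or IFN-β replicate A or C, and 12, all lower, with library size only. Mettl16, an RNA methyltransferase known to bind the Malat1 triple helix, had the largest fall in this list under both, by 0.88 and 0.76 on the log2 scale. Of 6 tested nuclear-retained RNAs, a list that includes Malat1, Neat1 and Gm37376, LPS raised 2 and lowered 2 and IFN-β raised 3 and lowered 1, and with library size only they raised none and lowered 3 and 2. Kcnq1ot1, an imprinted antisense RNA, fell from 268 ± 26.2 CPM to 86.0 ± 16.2 CPM with LPS and 195 ± 13.3 CPM with IFN-β (SD, n = 3).

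U90926 was detected almost only with LPS. It lies at chr5:92209893-92215408 on the minus strand and is protein-coding in GENCODE M21 but an lncRNA in RefSeq. It is known as a transcript induced by Toll-like receptor ligands in myeloid cells. Each unstimulated library held 1 count, libraries A, B and C with LPS held 5355, 4881 and 4180 counts, and those with IFN-β held 3, 1 and 5 counts. The LPS libraries had 189.5, 142.2 and 128.4 CPM, a mean of 153 ± 32.0 CPM (SD, n = 3). The unstimulated libraries lay under the floor of 3 counts, and the IFN-β libraries were under, at and just above it, so no fold is given between these groups. It passed the filter on low counts through the LPS libraries alone. The ratio of scaled summed counts was 6481 for LPS to unstimulated (95% counting interval 2217 to 31431, 14416 against 3 counts). It was 1962 for LPS to IFN-β (interval 1033 to 4293, 14416 against 9 counts), and 3044 without IFN-β replicate C. These intervals cover counting error only.

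The 250 bases before the annotated start of U90926 (chr5:92215409-92215658, minus strand, RefSeq, GRCm38.p6) are shown because this gene has the widest range of the 6.
U90926 upstream: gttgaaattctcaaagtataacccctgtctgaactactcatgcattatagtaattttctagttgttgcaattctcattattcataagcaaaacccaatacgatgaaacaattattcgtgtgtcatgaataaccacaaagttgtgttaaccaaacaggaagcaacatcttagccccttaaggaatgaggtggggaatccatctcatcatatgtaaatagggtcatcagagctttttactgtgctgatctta
Windows of 300 bases, from 250 before the start to 50 after it, were searched on both strands for exact matches. The motifs were NF-kB (GGG, then RNNYY, then CC), an ISRE core (GAAANNGAA), GAS (TTCNNNGAA), AP-1 (TGANTCA), CRE (TGACGTCA) and a TATA box (TATAAA). R is A or G, Y is C or T, and N is any base. No exact match stood in the windows of U90926, Mir22hg, Mir17hg or Malat1, and near matches were not counted. The Mir155hg window held 1 ISRE core, GAAACAGAA, at -238 bases from the start. Of 32851 mouse promoters of this length, 8.46% held the NF-kB motif, 8.56% the ISRE core, 8.30% GAS, 7.81% AP-1, 1.79% CRE and 13.6% the TATA box. The RefSeq starts of Mir155hg and Mir17hg lie inside their longer GENCODE genes, and a start upstream was not searched. The Mir17hg window spans the hairpins of miR-20a and miR-19b, so it covers part of the cluster itself. A match is a description of letters, not of binding.

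Neighbouring genes moved differently from the 6 RNAs in most cases. Gm2349, 55.2 kb from Mir155hg, was the nearest tested gene at lower coordinates and rose under both stimuli, but at 0.00752, 0.813 and 0.0851 CPM for unstimulated, LPS and IFN-β it was near the floor. Mrpl39, a mitochondrial ribosomal protein gene 2.33 kb from the other end, rose by 0.23 on the log2 scale with LPS (-0.36 with library size only) and by 1.02 with IFN-β. Beside Mir22hg, Wdr81 fell by 0.44 with LPS and Prpf8, a core spliceosome protein, by 0.31. Beside U90926, Uso1, a vesicle tethering factor, rose by 0.35 with LPS (-0.23 with library size only), and Ppef2, a phosphatase, fell by 2.02. The genes nearest to Mir17hg, Tpm3-rs7 and Tgds, lie over a megabase away.

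The genes whose pattern over the 9 libraries was most like each RNA were found as those with the smallest root-mean-square difference of centred log2 CPM values, among 12810 genes of at least 1 CPM on average. For Mir155hg these were Pla1a (0.16), Hspa1a (0.20) and Heatr9 (0.25). For Mir22hg they were Nfat5 (0.07), A930007I19Rik (0.08) and Gm38115 (0.09). Mir17hg was nearest to Rexo5 (0.08), Rab23 (0.11) and Gm50324 (0.11). For Neat1 the nearest was another miRNA host gene, Mir142hg (0.07), with 18.6 ± 1.60, 18.6 ± 2.38 and 20.3 ± 2.11 CPM (SD, n = 3) in unstimulated, LPS and IFN-β libraries, before 9430091E24Rik (0.09) and Chka (0.09). Malat1 was nearest to Dnajc17 (0.04), Lilr4b (0.05) and Gm4707 (0.05). For U90926 they were Cxcl1 (0.58), a neutrophil chemokine, Slc1a2 (0.66) and Il1b (0.68). U90926 was chosen for its LPS counts, so genes near it in pattern had to share a rise with LPS, and these are a description only. The measure grows with the size of the changes, so it is not compared between the 6 RNAs. With a pseudocount of 2 CPM in place of 0.5 the nearest gene changed for Mir22hg, Neat1 and Malat1, and with library size only it changed for Mir22hg.

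Levels between genes were compared as CPM per kb of exon, with all annotated exons of a gene joined. For Neat1 this is 20771 bases, although a shorter annotated transcript has 3004. Counts were not split between transcripts, so the place of Neat1 in the orders below depends on the length used. In unstimulated DCs the order was Malat1 (903), Neat1 (28.4), Mir22hg (14.5), Mir155hg (5.67), Mir17hg (1.42) and U90926 (0.0293). With LPS U90926 (192 ± 40.0) and Mir155hg (110 ± 16.6) came next to Malat1 (1147 ± 46.6), followed by Mir22hg (34.7 ± 4.48), Neat1 (28.6 ± 4.80) and Mir17hg (1.39 ± 0.144) (SD, n = 3). Mir22hg and Neat1, neighbours in that order, lay within the sum of their SDs of each other. With IFN-β the order was that of unstimulated DCs, with Neat1 at 32.0 ± 4.73, Mir22hg at 20.8 ± 1.73 and Mir155hg at 16.2 ± 0.167. Within these libraries Malat1 lay at percentile 99.8 to 99.9 of the tested genes per kb.

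Beyond these, 26 of 32 listed regulatory lncRNAs were tested. LPS raised 6 and lowered 16, and IFN-β raised 6 and lowered 14. The median log2 fold changes were -0.72 and -0.45, beside -0.04 and -0.02 for all tested genes. Of all tested genes, 32.8% were higher and 35.4% lower under LPS, and 23.6% and 23.3% under IFN-β. Scaled by library size only, IFN-β raised 3 and lowered 16 of the listed lncRNAs. Ptgs2os, which lies beside the prostaglandin synthase gene Ptgs2, had 0 counts summed over the unstimulated libraries, 595 with LPS and 3 with IFN-β. Its neighbour Ptgs2os2 rose from 0.670 ± 0.0230 CPM to 24.6 ± 3.87 CPM with LPS and to 1.19 ± 0.181 CPM with IFN-β (SD, n = 3). AW112010, a transcript of activated immune cells, rose from 54.0 ± 9.01 CPM to 973 ± 179 and 497 ± 57.6 CPM. Morrbid, a regulator of myeloid cell survival, rose by 2.74 and 1.25 on the log2 scale. Pvt1, the neighbour of Myc, fell from 14.6 ± 3.01 CPM to 1.22 ± 0.380 CPM with LPS and 6.79 ± 1.64 CPM with IFN-β. Snhg12, a snoRNA host gene, fell by 1.58 and 1.16.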

How the data were processed

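RNA of 9 libraries (3 per group, grouped by sample title) was prepared by the study's authors with ribosomal depletion and sequenced as paired ends. They trimmed reads with Trim Galore (0.6.0) and mapped and counted them with STAR on GRCm38 and GENCODE M20. The submitters' processing notes give STAR 2.7.8a, which differs from the version in the methods. The authors deposited raw counts per gene, without normalization or filter. Coordinates and overlaps are from GENCODE M21 (GRCm38), and sequences from RefSeq (GRCm38.p6).

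Counts were fitted with edgeR 4.0.16 (R 4.3.3), with TMM factors, filterByExpr, 1 model with a term per condition over all 9 libraries, quasi-likelihood F-tests and Benjamini-Hochberg adjustment over 16260 genes. The model was tested on simulated data. Ratios within libraries were compared by exact permutation. The floor was 3 counts per library, the pseudocount 0.5 CPM, and intervals are 95%. Counting intervals and floors cover counting error only.

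The members and gene lists were chosen with earlier results of these data known. The text names the 6 RNAs, genes overlapping or next to them and the 3 most alike in pattern. It also names part of the largest rises and falls of the lists, and markers of stimulation and cell types. Others with a largest rise or fall are left out above, such as Maf of the miR-155 targets (log2 fold change 3.02 under LPS). Dicer1, Drosha, Sfpq, Pspc1, Mir99ahg and the genes counted almost only with LPS (Il23a, Il10, Il17rd, Thbs4) stand outside this rule and were named after their values were seen.

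Replicates differed by more than sampling noise in every pair (chi-square per degree of freedom 12.9 to 35.9). The letters A to C come from the titles. After subtracting group means, the 9 same-letter pairs correlated at 0.134 to 0.546 across genes. All were above 0.1, so the letters were taken to pair the libraries in the replicate block. The main fits and the permutation tests did not use this pairing. The blocked value stands beside a printed call on a named gene that it changes and a printed list count that it moves by over 1.5 times. Alternatives were DESeq2 1.42.0, upper-quartile factors, library size only, no filter, at least 10 counts in every library, the compared groups alone, the replicate block, other thresholds, a pseudocount of 2 CPM, and each library left out.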

Additional observations from a re-analysis of the deposited data

Results flagged for a closer look

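The responses to IFN-β and to LPS differed, by the test of the difference itself, for both host genes that rose. For Mir155hg the IFN-β response minus the LPS response was -2.77 on the log2 scale (edgeR adjusted p = 2.1e-08), and it was below 0 in 3 of 3 letters. For Mir22hg it was -0.74 (edgeR adjusted p = 1.5e-04), also below 0 in 3 of 3 letters. Both have the same sign in every alternative run, between -2.86 and -2.50 for Mir155hg and between -0.82 and -0.47 for Mir22hg.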

How the results depend on the processing

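The Mir155hg changes were past the threshold in the same direction in all 18 alternatives of each comparison, and so was the LPS rise of Mir22hg. With library size only, Mir17hg under LPS was -0.62 (adjusted p = 0.0179) and under IFN-β -0.68 (adjusted p = 0.0156), Neat1 -0.57 and -0.14, Malat1 -0.24 and 0.19, and Mir22hg under IFN-β 0.21 (adjusted p = 0.157). The differences between IFN-β and LPS were then 0.44 for Neat1 and 0.43 for Malat1, both past the threshold, and the log2 ratio of U90926 for LPS to unstimulated was 12.08 against 12.66. Malat1 under LPS was 0.25 with upper-quartile factors. The Mir17hg LPS value was 0.0085 with DESeq2. That of Neat1 was -0.0844 with upper-quartile factors, -0.0080 without a filter, -0.0062 with at least 10 counts in every library and -0.0024 with the compared groups alone. With the replicate block, Mir17hg under IFN-β was -0.35 and Neat1 0.17, and the Neat1 difference was 0.17, all past the threshold. The block changed no other call on the 5 tested RNAs. With a log2 change of 1 or more in size as a further condition, 5429, 2052 and 2834 genes were called in the 3 comparisons, and Malat1 (0.35 and 0.50), Mir22hg under IFN-β (0.52) and its difference (-0.74) were not. Malat1 under LPS (0.35) was not called at an adjusted p-value under 0.01.

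Leaving out each library in turn gave -0.20 to 0.17 for Mir17hg and -0.10 to 0.14 for Neat1 under LPS, where the sign changed. It gave 0.28 to 0.39 for Malat1 under LPS, -0.53 to -0.16 for Mir17hg under IFN-β, 10.55 to 11.57 for the U90926 log2 ratio of LPS to IFN-β, and -0.12 to 0.11 for the difference in the Neat1 to Malat1 ratio between the stimuli. U90926 has no value with at least 10 counts in every library. Of 828 list counts and nearest-gene results under alternatives, 776 stayed (within 1.5 times, or with the same nearest gene) and 52 moved. The cause of these shifts was not tested. A count of 3 limits what can be seen of U90926 outside LPS, and 3 libraries per group limit every permutation p-value to 0.1.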

Other observations

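As a class, long non-coding genes showed changes in both directions. Of 9914 such genes in the deposited counts, 1530 were tested, a grouping added after the data were seen. LPS raised 475 and lowered 361, and IFN-β raised 309 and lowered 148, with median log2 fold changes of 0.08 and 0.09 beside -0.04 and -0.02 for all tested genes. These are 31.0% higher and 23.6% lower of the class under LPS, beside 32.8% and 35.4% of all tested genes, and 20.2% and 9.67% under IFN-β, beside 23.6% and 23.3%. Scaled by library size only, LPS raised 296 and lowered 681, and IFN-β raised 205 and lowered 329. With that scaling 2777 of the 16260 tested genes rose and 9906 fell after LPS. After IFN-β 2146 of them rose and 7484 fell. Between the stimuli, with TMM factors, 260 of the 1530 long non-coding genes were higher and 276 lower with IFN-β. These are 17% and 18% of the class, beside 25.8% and 23.3% of all tested genes. With library size only 25.6% of the class were higher and 11.4% lower, beside 7024 and 1996 of the 16260 tested genes.

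The genes counted almost only with LPS, as U90926 was, included cytokine genes. With at most 9 counts summed over each of the other groups, a limit taken from the IFN-β sum of U90926 itself, Il23a, a subunit of IL-23, had 1961 counts with LPS, Il10, an anti-inflammatory cytokine, 954, Il17rd, a receptor-like gene, 690, and Thbs4, a matrix protein gene, 637. The lncRNA Ptgs2os followed with 595.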
